A study of Mus musculus with 4 samples.

Results

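The genes described here are 10 stress-responsive genes measured in libraries labelled as tumor-associated macrophages (TAMs), of which 8 are immediate early genes (*Fos*, *Fosb*, *Jun*, *Junb*, *Egr1*, *Atf3*, *Ier2* and *Dusp1*) and 2 encode inducible HSP70 (*Hspa1a* and *Hspa1b*). They were chosen by name as genes that tissue dissociation is known to induce. Each symbol matched 1 Ensembl row among the 54532 genes of the count table, and all 10 passed the filter on low counts. The HSP70 genes differed most between genotypes: in the libraries labelled Syk MC-KO (hereafter KO-labelled) they were 13.1-fold higher for *Hspa1a* and 7.97-fold higher for *Hspa1b*, whereas *Fosb* was 2.71-fold lower and *Fos*, *Jun*, *Egr1* and *Ier2* did not pass the test. These folds are relative to TMM normalization, and scaling to macrophage or leukocyte genes, given further on, turned the direction of several of them.

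Immediate early genes are transcribed within minutes of a stimulus from factors that the cell already holds, without new protein synthesis. MAP kinases activate ternary complex factors, SRF, CREB and Jun at their promoters, and the products include AP-1 transcription factors (dimers of Fos and Jun proteins), Egr1, and feedback inhibitors such as the MAP kinase phosphatase Dusp1. Heat shock genes answer to unfolded protein instead: heat shock factor HSF1 is released from chaperones, trimerizes and binds inverted repeats in the promoters of HSP70 and its co-chaperones. In macrophages both programs follow pattern recognition, adhesion and stress, and both are also known to switch on while a tissue is digested into single cells.

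NB9464 cells, a murine neuroblastoma line with amplified *MYCN*, were placed under the skin of C57BL/6 mice of 4 to 6 weeks. No other treatment is listed for these mice, and TAMs were taken on day 40. In the Syk MC-KO strain a floxed *Syk* is cut by Cre under the lysozyme M (*Lyz2*) promoter, so deletion takes place in myeloid cells and not in the implanted tumor cells, and Syk MC-WT mice, with intact *Syk*, are the controls, although whether they carry Cre is not given in the sources used here. Tumors were minced and digested with collagenase, hyaluronidase, Dispase and DNAse before TAMs were isolated on magnetic beads for CD11b and F4/80, and polyA RNA was sequenced from 4 libraries, of which M7 and M8 carry the label Syk MC-WT (WT-labelled) and M9 and M10 the label Syk MC-KO. The labels also name BMDMs, macrophages grown from bone marrow, as the source of the RNA in one line. The deposited counts are named after the confirmation of an adoptive transfer. In the paper's transfer experiment, TAMs of either genotype were mixed with NB9464 cells and injected into mice of either genotype. Whether these libraries came from that experiment is not given in the sources used here. If all 4 libraries came from digested tumors as the isolation is described, induction in the tumor and induction during dissociation cannot be told apart. The methods describe single reads in triplicate whereas the labels give paired reads and 2 libraries per genotype, and the labels do not say whether the libraries of a genotype came from separate mice, so p-values measure the spread between libraries, which may be technical.

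Total counts were between 20755886 and 23518045 per library, and the smallest signal taken as detectable, 3 counts, was at most 0.163 CPM (counts per megaread of the TMM-normalized library total), a limit that covers counting error only. *Syk*, the deleted gene, was 6.98-fold higher in the KO-labelled libraries (adjusted p = 0.000674), against their label, so each direction is that of the libraries as labelled. All 10 macrophage markers were higher in those libraries too: their summed level was 736 to 1080 CPM in the WT-labelled libraries and 5510 to 8600 CPM in the KO-labelled ones. The 6 neutrophil markers were higher as well, with a sum of 29.5 to 42.7 CPM and 232 to 464 CPM, whereas the sum of the fibroblast markers was 12600 to 14500 CPM in the WT-labelled and 4110 to 5030 CPM in the KO-labelled libraries. In the WT-labelled libraries fibroblast markers thus stood far above macrophage markers, against what a macrophage isolate is labelled to hold. The neuroblastoma markers summed to 284 to 323 CPM and 209 to 332 CPM. Most of that was *Hand2*, with 3666 to 7403 counts, which did not pass the test (-0.28, adjusted p = 0.418). *Mycn*, with 525 to 799 counts, and *Gata3*, with 5 to 40, were higher in the KO-labelled libraries by 0.74 and 2.82 on the log2 scale, and *Th* and *Dbh* had 0 counts throughout. Mitochondrial transcripts took 2.20% and 2.34% of the counts in M7 and M8, 6.00% in M9 and 15.9% in M10. Over 16451 genes, 22.7% were higher and 16.7% lower in the KO-labelled libraries (edgeR's quasi-likelihood test, adjusted p under 0.05). Fewer cells of a type and less RNA per cell cannot be told apart in these libraries.

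The upstream sequences of the HSP70 pair and of *Fos* and *Fosb* are shown first, because the pair moved together in these data whereas *Fos* and *Fosb* parted. They are RefSeq sequences of GRCm38.p6 that end just before the start of transcription, and 8 of the 10 genes had an entry. Capitals mark GAANNTTC, the inverted repeat of 2 units to which heat shock factors bind. *Hspa1a* is from chr17:34972157-34972406 and *Hspa1b* from chr17:34959239-34959488, both on the minus strand, *Fos* from chr12:85473640-85473889 on the plus strand, and *Fosb* from chr7:19310052-19310295 on the minus strand.
Hspa1a: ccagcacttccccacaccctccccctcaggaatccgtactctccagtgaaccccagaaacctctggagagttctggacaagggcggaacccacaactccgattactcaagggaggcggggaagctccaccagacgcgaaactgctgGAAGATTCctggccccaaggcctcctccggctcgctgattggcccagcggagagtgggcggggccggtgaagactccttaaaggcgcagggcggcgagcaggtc
Hspa1b: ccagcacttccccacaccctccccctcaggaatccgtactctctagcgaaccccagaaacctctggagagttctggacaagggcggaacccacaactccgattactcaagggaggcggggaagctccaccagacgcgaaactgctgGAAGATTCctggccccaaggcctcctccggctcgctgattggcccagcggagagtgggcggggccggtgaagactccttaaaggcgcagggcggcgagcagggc
Fos: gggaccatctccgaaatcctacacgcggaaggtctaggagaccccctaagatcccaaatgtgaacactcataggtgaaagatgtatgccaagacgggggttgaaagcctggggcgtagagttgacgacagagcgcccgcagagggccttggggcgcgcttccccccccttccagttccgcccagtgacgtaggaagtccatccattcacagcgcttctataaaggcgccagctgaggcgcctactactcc
Fosb: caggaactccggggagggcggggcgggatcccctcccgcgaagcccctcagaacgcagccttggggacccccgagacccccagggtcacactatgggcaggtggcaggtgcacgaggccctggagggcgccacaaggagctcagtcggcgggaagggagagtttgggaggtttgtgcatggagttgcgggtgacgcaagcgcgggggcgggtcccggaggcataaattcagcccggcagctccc

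The windows of *Hspa1a* and *Hspa1b* were identical at 247 of 250 positions, and GAANNTTC began at position -104 from the start site in both. The motif, which reads the same on both strands, was found in 3 of the 8 members with a sequence (the other is *Jun*, at position -128) and in 6.78% of 27025 promoters of the same length. The matches of the near-identical pair are not independent, and enrichment was not tested. The reverse arrangement TTCNNGAA was in none of the 8 and in 7.10% of all promoters. TGACGTCA, the cAMP response element, was in *Dusp1* alone at position -143 and in 1.62% of all promoters. The AP-1 element TGANTCA and the CArG box of SRF, each with no match in the 8 windows, were in 6.87% and 1.4% of promoters. Bases farther upstream than these 250 were not searched, and *Egr1* and *Ier2* had no sequence, so absence of an element from these genes is not shown. A match is a description of these letters and not a measured site.

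HSP70 binds exposed hydrophobic stretches of unfolded proteins, and *Hspa1a* and *Hspa1b* encode its stress-inducible form. *Hspa1a* (ENSMUSG00000091971, chromosome 17, 34969190 to 34972156) had 35.8, 23.0, 478 and 296 CPM in M7, M8, M9 and M10. *Hspa1b* (ENSMUSG00000090877, chromosome 17, 34956436 to 34959238) had 46.3, 41.5, 416 and 284 CPM in the same order. For both genes M9 was the highest library, and both KO-labelled libraries were far above both WT-labelled ones. The means of *Hspa1a* were 29.4 ± 9.08 CPM (SD, n = 2) in the WT-labelled and 387 ± 129 CPM (SD, n = 2) in the KO-labelled libraries, a log2 fold change (log2FC, KO-labelled over WT-labelled) of 3.72 (standard error, SE, 0.338, adjusted p = 0.00107). Those of *Hspa1b* were 43.9 ± 3.39 CPM (SD, n = 2) and, in the KO-labelled pair, 350 ± 92.9 CPM (SD, n = 2), and its log2FC was 2.99 (SE 0.239, adjusted p = 0.000834).

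The genes share sequence, so reads can be divided between them: of all windows of 150 bases, the length of a single read in the labels, 38.1% of those in the *Hspa1a* transcript also occur in *Hspa1b*. A read pair covers more than 1 window, so this is not the share of ambiguous fragments. Their counts were therefore also added. The sum over M7, M8, M9 and M10 was 2254, 1586, 18409 and 10649 counts, a log2FC of 3.33 with a 95% interval of 2.64 to 4.02 (adjusted p = 0.000925), and leaving out any 1 library kept it between 2.90 and 3.62. Scaled to the 10 macrophage markers the log2FC of the sum was 0.43 (adjusted p = 0.459), and scaled to 6 pan-leukocyte genes it was -0.24 (adjusted p = 0.533). Over all alternatives the adjusted p ran from 1.22e-32, where the sum was higher by 3.31, to that 0.533.

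**Figure D1:**
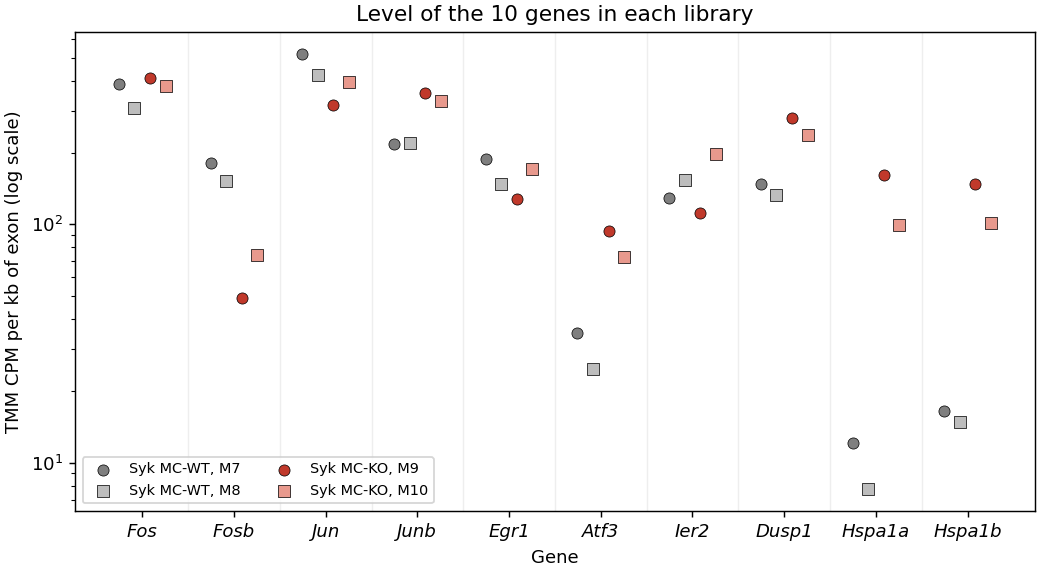
Level of each gene in each library, as TMM-normalized CPM per kb of exon on a log axis, with 1 point per library and no averaging. *Hspa1a* and *Hspa1b* sit between 7.75 and 16.5 in the WT-labelled libraries (grey) and between 99.7 and 161 in the KO-labelled ones (red), *Fosb* sits lower in the red points, and *Fos*, *Egr1* and *Ier2* overlap between genotypes.

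The AP-1 members divided. *Fos* (ENSMUSG00000021250, chromosome 12, 85473890 to 85477273), whose protein pairs with Jun proteins, had 913, 722, 961 and 890 CPM in M7, M8, M9 and M10. The genotypes overlapped, and the log2FC was 0.18 with a 95% interval of -0.34 to 0.70 (adjusted p = 0.541). Its paralog *Fosb* (ENSMUSG00000003545, chromosome 7, 19302696 to 19310051) had 1130, 952, 306 and 464 CPM. *Fosb* was lower in both KO-labelled libraries, with 385 ± 112 CPM (SD, n = 2) there and 1040 ± 127 CPM (SD, n = 2) in the WT-labelled pair, for a log2FC of -1.44 (SE 0.264, adjusted p = 0.00825). No 150-base window of the *Fos* transcript occurs in that of *Fosb* (0 of 1959).

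*Jun* (ENSMUSG00000052684, chromosome 4, 95049034 to 95052222), the AP-1 partner activated by JNK, had the highest level of the list per kb in M7, M8 and M10. It had 1650, 1350, 1010 and 1260 CPM in M7, M8, M9 and M10, and its log2FC of -0.40 did not pass the test (95% interval -0.98 to 0.18, adjusted p = 0.226), although the genotypes did not overlap. *Junb* (ENSMUSG00000052837, chromosome 8, 84974484 to 84978718), which in many settings limits the activity of Jun, had 501, 506, 818 and 758 CPM. It was higher in both KO-labelled libraries, with 788 ± 41.9 CPM (SD, n = 2) there and 504 ± 3.19 CPM (SD, n = 2) in the WT-labelled pair, for a log2FC of 0.65 (SE 0.185, adjusted p = 0.0342). That call was lost when M7, M8 or M9 was left out (log2FC 0.64, 0.64 and 0.5). The direction turned when libraries were scaled to housekeeping, macrophage or leukocyte genes. Over all alternatives the adjusted p ran from 1.33e-07 to 0.693. The lowest came from the scaling to leukocyte genes, where *Junb* was lower (-2.9). *Prdx2* on the opposite strand overlaps the end of *Junb*, had 3017 to 4284 counts per library and was higher as well (0.57, adjusted p = 0.0396), and an antisense gene, *Junos*, with 36 to 85 counts per library, overlaps *Jun*. How strand was treated in counting is not given in the sources used here.

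*Egr1* (ENSMUSG00000038418), a zinc finger factor downstream of ERK and SRF, had 838, 659, 574 and 766 CPM in M7, M8, M9 and M10, and its log2FC was -0.16 with a 95% interval of -0.74 to 0.42 (adjusted p = 0.627). *Ier2* (ENSMUSG00000053560, chromosome 8, 84661331 to 84662852), a nuclear protein of the early serum response, had 196, 234, 171 and 302 CPM. M9 and M10 were the lowest and the highest library for *Ier2*, and the log2FC was 0.13 with a 95% interval of -0.55 to 0.82 (adjusted p = 0.736). The genotypes overlapped for *Egr1* and *Ier2* as for *Fos*, and the 3 intervals are wide enough to hold a change of 0.70 on the log2 scale in at least 1 direction.

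*Atf3* and *Dusp1* were higher in the KO-labelled libraries under TMM normalization and lower there when libraries were scaled to macrophage or leukocyte genes (*Dusp1* also when scaled to housekeeping genes). *Atf3* (ENSMUSG00000026628, chromosome 1, 191170296 to 191218039), a bZIP factor that restrains inflammatory transcription and is induced by many stresses, had 75.1, 53.2, 202 and 157 CPM in M7, M8, M9 and M10. Its log2FC was 1.49 (SE 0.230, adjusted p = 0.00475), and it passed the test whichever library was left out. *Dusp1* (ENSMUSG00000024190, chromosome 17, 26505590 to 26562128), which dephosphorylates p38 and JNK, had 487, 439, 926 and 785 CPM. Its log2FC was 0.89 (SE 0.200, adjusted p = 0.0161), and the call was lost without M7 or without M8 (log2FC 0.96 and 0.8). Over all alternatives the adjusted p ran from 4.58e-07 to 0.258. The lowest came from the scaling to leukocyte genes, where *Dusp1* was lower (-2.66). *Ergic1*, on the opposite strand, overlaps the annotated *Dusp1* gene and had 3028 to 4437 counts per library.

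**Figure D2:**
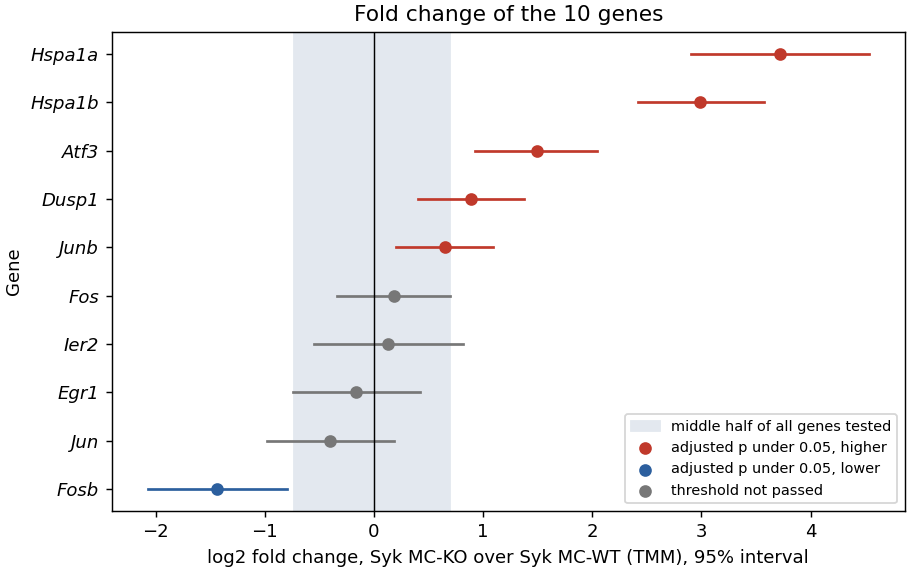
Log2FC of each gene (KO-labelled over WT-labelled libraries, edgeR with TMM) with its 95% interval, over the range that holds the middle part of all genes tested (first to last quartile, -0.73 to 0.70). *Hspa1a*, *Hspa1b*, *Atf3* and *Dusp1* lie above that range and *Fosb* below it. Directions of *Fos*, *Junb*, *Atf3*, *Ier2*, *Dusp1* and *Hspa1b* turn under at least 1 other scaling.

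Of the 10 genes, 5 passed the test as higher and 1 as lower, against 22.7% and 16.7% of all genes tested (6 and 39.4% in either direction). *Hspa1a* and *Hspa1b*, both among the 5, share sequence and are not independent in this or the following counts. The members were chosen with earlier results of these data known, and an excess over all genes was not tested. The genotypes did not overlap for 7 of the 10, against 75.2% of all genes, so this count is near the background. Of the 7, 5 were above (38% of all genes) and 2 below (37.2%). An absolute log2FC of 1 or more was reached upward by 3 members (17.9% of all genes) and downward by 1 (18.7%). The median log2FC of the members was 0.42, and that of all genes was 0.02. The 10 genes together took 0.718% and 0.589% of the counts in M7 and M8, and 0.513% and 0.469% in M9 and M10. Within that, the HSP70 pair took 0.0100% and 0.00764% of the counts in M7 and M8 but 0.0783% in M9 and 0.0456% in M10.

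By level per kb of exon, *Jun*, *Fos* and *Junb* were the 3 highest members in every library. In M9 *Fos* came first (409 CPM per kb, against 355 for *Junb* and 317 for *Jun*), and *Jun* came first elsewhere, up to 518 in M7. *Hspa1a* was the lowest member in M7 and M8, with 12.1 and 7.75 CPM per kb, whereas *Fosb* was lowest in M9 (49.0) and *Atf3* in M10 (73.0). Among all genes ranked per kb, *Jun* stood at place 52 in M7 and 196 in M9, and *Hspa1a* moved from place 3534 in M7 and 5210 in M8 to place 371 in M9 and 505 in M10.

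Ratios of counts between members within a library do not depend on how libraries are scaled. The ratio of *Fosb* to *Fos* was 1.24 in M7 and 1.32 in M8 but 0.318 in M9 and 0.521 in M10, which is 3.14-fold lower in the KO-labelled libraries (geometric means). *Junb* to *Jun* went the other way, from 0.304 and 0.376 to 0.809 and 0.603, a 2.07-fold difference. *Dusp1* to *Fos* was 0.534 and 0.608, then 0.964 and 0.882. *Atf3* to *Jun* was 0.0455 and 0.0396, then 0.200 and 0.125, 3.73-fold higher. All of these ratios separated the genotypes, with M9 farther from the WT-labelled libraries than M10 was. They restate the fold changes given above, and the share of all gene pairs that would separate was not computed. Of all single genes tested, 75.2% separated the genotypes.

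The summed HSP70 genes to *Fos* stood at 0.0900 and 0.0894 in M7 and M8, and at 0.930 and 0.652 in M9 and M10, 8.68-fold higher in the KO-labelled libraries. Against the sum of the 8 immediate early genes the pair was 10.2-fold higher. *Hspa1a* to *Hspa1b*, which depends on how shared reads were divided, was 0.773 and 0.553 against 1.15 and 1.04. An exact permutation test (two-sided, 2 against 2) gave p = 0.333 for each ratio, the smallest this design allows. When all libraries were scaled to the 8 immediate early genes, an alternative added after the data were seen, the edgeR fit gave log2FCs of 3.60 for *Hspa1a* (adjusted p = 0.000328), 2.86 for *Hspa1b* (adjusted p = 0.000376) and -1.61 for *Fosb* (adjusted p = 0.00185). That scale is set from the 8 immediate early genes themselves, which places them around 0 together. The values of *Fosb* and the others of the 8 thus only compare these genes among themselves. On it *Atf3* was at 1.35 (adjusted p = 0.00496) and *Dusp1* at 0.74 (adjusted p = 0.0365), while *Junb* at 0.49 did not pass (adjusted p = 0.118).

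**Figure D3:**
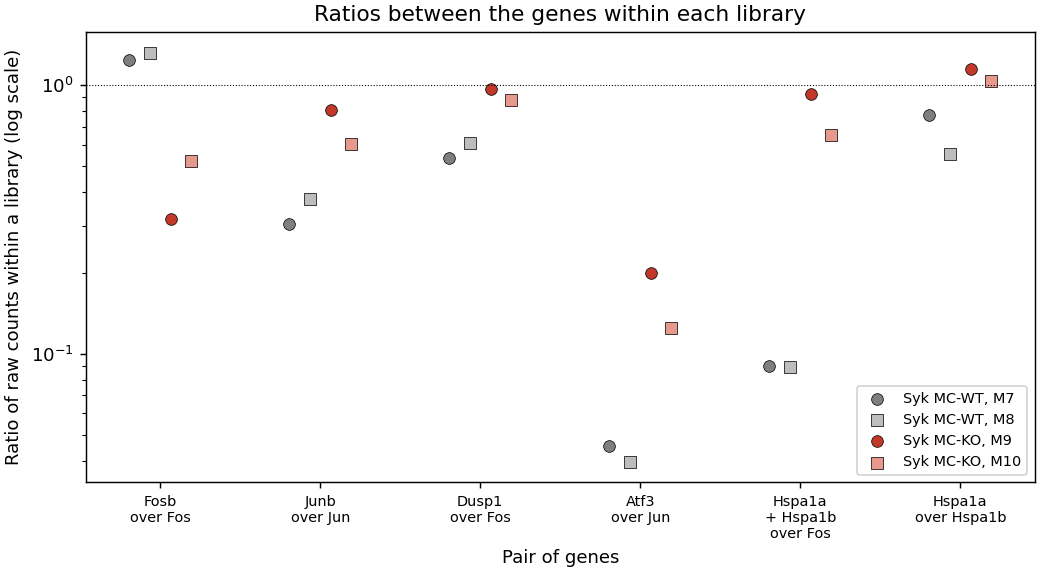
Ratio of raw counts between pairs of members within each library, on a log axis, 1 point per library. The ratio of *Fosb* to *Fos* is lower, and the 5 other ratios higher, in both KO-labelled libraries (red) than in both WT-labelled ones (grey), whatever the scaling.

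Between libraries, the zero of a fold change is set by the scaling. A scaling moves every gene by nearly the same amount. Agreement between scalings in a gene's distance from the median of all genes therefore adds no support. Under 6 scalings the median log2FC of all genes tested was 0.02 (TMM), -0.03 (DESeq2 size factors), -0.52 (library size only), -1.19 (5 housekeeping genes), -2.85 (10 macrophage markers) and -3.51 (6 pan-leukocyte genes). The housekeeping genes were *Actb*, *Ppia*, *Tbp*, *Hprt* and *Ywhaz*. Like the macrophage and leukocyte genes, they were themselves higher on average in the KO-labelled libraries under TMM, so they are not a neutral reference. Relative to that median, *Hspa1a* was higher by 3.67 to 3.72, *Hspa1b* by 2.93 to 2.99, *Atf3* by 1.46 to 1.48, *Dusp1* by 0.85 to 0.88 and *Junb* by 0.61 to 0.63 in all 6 scalings. *Fosb* lay at -1.47 to -1.38 and *Jun* at -0.43 to -0.36 on the same relative scale, and *Fos* at 0.16 to 0.18, *Ier2* at 0.10 to 0.16 and *Egr1* at -0.19 to -0.11. As log2FCs in their own right, 4 genes kept their sign in all 6 scalings: *Hspa1a* was above 0, and *Fosb*, *Jun* and *Egr1* were below 0. *Fosb* passed the test in each of them. *Hspa1a* was at 0.84 with the macrophage scaling (adjusted p = 0.135) and 0.16 with the leukocyte scaling (adjusted p = 0.681; 2.84e-41 to 0.681 over all alternatives), and all 8 immediate early genes passed the test as lower in both, as did 87.4% and 92.3% of all genes tested.

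**Figure D4:**
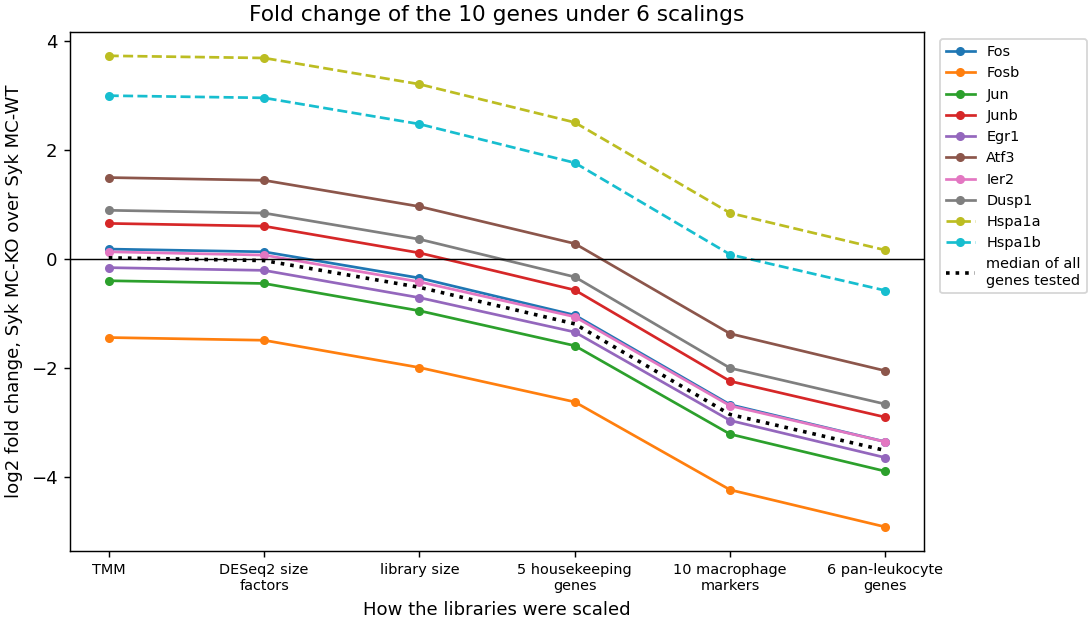
Log2FC of each gene under 6 ways of scaling the libraries, with the median of all genes tested as the dotted line. The dotted line falls from 0.02 to -3.51. The genes keep nearly the same distance from it because a scaling moves every gene by nearly the same amount. *Fosb*, *Jun* and *Egr1* are below 0 and *Hspa1a* above 0 throughout.

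Related genes were read from the same fit in lists grouped by function. Of each list the 4 with the highest level per kb are named, together with others singled out after their values were seen. Over all genes tested, 22.7% were higher and 16.7% lower, and the lists were not tested against these shares. Other AP-1 proteins and partners were spread in both directions: 4 of 12 were higher, 3 lower and 5 did not pass. *Jund*, the constitutive Jun protein and the most abundant of the list, had 629, 575, 565 and 784 CPM in M7 to M10, a log2FC of 0.16 (adjusted p = 0.596). *Fosl2* (-0.56, adjusted p = 0.0470) and *Mafg* (-0.88, adjusted p = 0.0103) were lower, as was *Fosl1*. *Jdp2*, a repressor that dimerizes with Jun, was higher by 1.52 (adjusted p = 0.00977), and so were *Batf*, *Batf2* and *Batf3*, leukocyte AP-1 factors, by 2.28, 1.93 and 2.68. These calls are for TMM normalization, and the median of the list, 0.06, was -1.14 with housekeeping genes, -2.78 with macrophage markers and -3.46 with leukocyte genes.

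Of 15 other immediate early transcription factors tested, 10 were higher and 1 was lower (*Egr3*, -1.15, adjusted p = 0.0112) with TMM, with a median of 1.06. Scaled to housekeeping genes the counts were 1 and 5, and with macrophage markers 0 and 12 (edgeR, with 0 higher also at an unadjusted p under 0.05). *Cebpb*, a driver of inflammatory macrophage genes, had 175, 183, 603 and 605 CPM, a log2FC of 1.75 (adjusted p = 0.00136). *Klf2*, a factor of quiescence, was higher by 1.06 (adjusted p = 0.0184), whereas *Klf6* at 0.45 (adjusted p = 0.157) and *Nr4a1* at -0.03 (adjusted p = 0.939) did not pass. *Egr2* was higher by 0.99 (adjusted p = 0.0108), so among the Egr genes *Egr1*, *Egr2* and *Egr3* had 3 different outcomes. The median of this list was -0.12 with housekeeping genes and -1.73 with macrophage markers.

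Among 23 feedback and effector genes 13 were higher, 4 lower and 6 did not pass (median 0.76, and -0.48 with housekeeping genes). *Zfp36*, which destabilizes cytokine mRNAs, had 96.9, 68.2, 887 and 705 CPM, a log2FC of 3.27 (adjusted p = 0.000834). *Nfkbia*, the inhibitor of NF-kappaB, had 183, 118, 594 and 549 CPM (1.92, adjusted p = 0.00280). *Socs3* at -0.50 (adjusted p = 0.132) and *Rhob* at -0.19 (adjusted p = 0.5), both abundant, did not pass. The 4 that were lower were *Cyr61* (-1.49) and *Ctgf* (-1.71), matricellular genes of stromal cells, with *Sgk1* (-1.25) and *Gadd45a* (-1.02). Like *Fosb*, they were lower in the libraries with the lower fibroblast marker sum (5 of 8 fibroblast markers passed the test as lower). When libraries were scaled to macrophage or leukocyte genes, most genes of every list passed the test as lower. The part of cell composition in these values and in those of the 10 genes was not tested.

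MAP kinase phosphatases other than *Dusp1* were higher in 5 of 11 cases and lower in 1. *Dusp6*, specific for ERK, was higher by 1.64 (adjusted p = 0.00823), *Dusp5* by 2.43 (adjusted p = 0.00159) and *Dusp3* by 1.33 (adjusted p = 0.00380), while *Dusp14* at -0.24 did not pass (adjusted p = 0.526) and *Dusp4* was lower (-1.66, adjusted p = 0.00313). Of 21 kinases, ternary complex factors and other upstream genes, 13 did not pass, 6 were higher and 2 lower, so 8 of 21 were called, near the 39.4% of all genes. *Mapk3* (ERK1) was higher by 1.27 (adjusted p = 0.00413) and *Mapkapk2*, the p38 effector, by 0.64 (adjusted p = 0.0434), and *Map2k7*, which activates JNK, was at -0.72 (adjusted p = 0.0230). The ternary complex factors *Elk1*, *Elk3* and *Elk4* lay between -0.28 and 0.22 and none passed. The medians of the phosphatases and the upstream genes, 0.50 and 0.22, were -0.68 and -1 with housekeeping genes.

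The other heat shock genes moved less than *Hspa1a* and *Hspa1b*. Of 16 inducible ones 9 were higher, 0 were lower and 7 did not pass by edgeR (2 were lower at an unadjusted p under 0.05, and 1 by DESeq2), with a median log2FC of 1.04 under TMM and -0.16, -1.81 and -2.48 when scaled to housekeeping, macrophage and leukocyte genes. *Hspa8* was counted in this list although it encodes the constitutive HSC70. It is the most abundant of the list, at 1710, 1330, 3550 and 3580 CPM, a log2FC of 1.23 (adjusted p = 0.0125). *Hsp90aa1*, the inducible HSP90, had 314, 304, 815 and 901 CPM (1.47, adjusted p = 0.00257). The mitochondrial chaperonin *Hspd1* (1.34, adjusted p = 0.00534) and the co-chaperone *Stip1* (1.05, adjusted p = 0.0121) were higher too. *Bag3*, a nucleotide exchange factor for HSP70, had the largest log2FC of the 16: its levels were 5.29, 3.91, 35.5 and 25.7 CPM, a log2FC of 2.73 (adjusted p = 0.00142). *Dnajb1*, the main HSP40 partner of HSP70 in the heat shock response, had 87.8, 103, 91.0 and 98.7 CPM and a log2FC of -0.01 with a SE of 0.160 (adjusted p = 0.982). Its genotypes overlapped, and the 95% interval ran from -0.39 to 0.38. *Hspb8* (-0.43, adjusted p = 0.0892) and *Cryab* (-0.64, adjusted p = 0.120), small heat shock proteins, did not pass either.

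Constitutive and organelle chaperones with the heat shock factors gave 8 higher and 0 lower of 18 by edgeR, with 0 lower also at an unadjusted p under 0.05 and by DESeq2 (median 0.60, and -0.61 with housekeeping genes). *Hsp90b1* of the endoplasmic reticulum (1.04, adjusted p = 0.0111) and *Hspa9* of mitochondria (0.75, adjusted p = 0.0387) were higher, and *Hsp90ab1* (0.76, adjusted p = 0.0539) and *Hspa5* (0.60, adjusted p = 0.0877) did not pass. Transcripts of the heat shock factors *Hsf1* and *Hsf2* were at -0.19 (adjusted p = 0.582) and -0.30 (adjusted p = 0.347). *Hspa1l*, the third gene of the *Hspa1* locus, had 77, 105, 66 and 0 counts and did not pass (adjusted p = 0.532).

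Integrated stress response genes, the pathway through *Atf4* by which amino acid shortage and unfolded protein induce *Atf3*, gave 3 higher, 3 lower and 8 that did not pass, 3 of 14 each way against 22.7% and 16.7% of all genes. *Atf4* had 149, 153, 197 and 186 CPM, a log2FC of 0.34 (adjusted p = 0.126), *Atf5* was at 0.29 (adjusted p = 0.270) and *Ddit3* (CHOP) at 0.52 (adjusted p = 0.103). *Ddit4*, an inhibitor of mTORC1, was lower (-0.73, adjusted p = 0.0164) and *Xbp1*, of the unfolded protein response, higher by 0.88 (adjusted p = 0.0109). The list's median of 0.43 was below the 1.49 of *Atf3*, and was -0.79 with housekeeping genes.

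**Figure D5:**
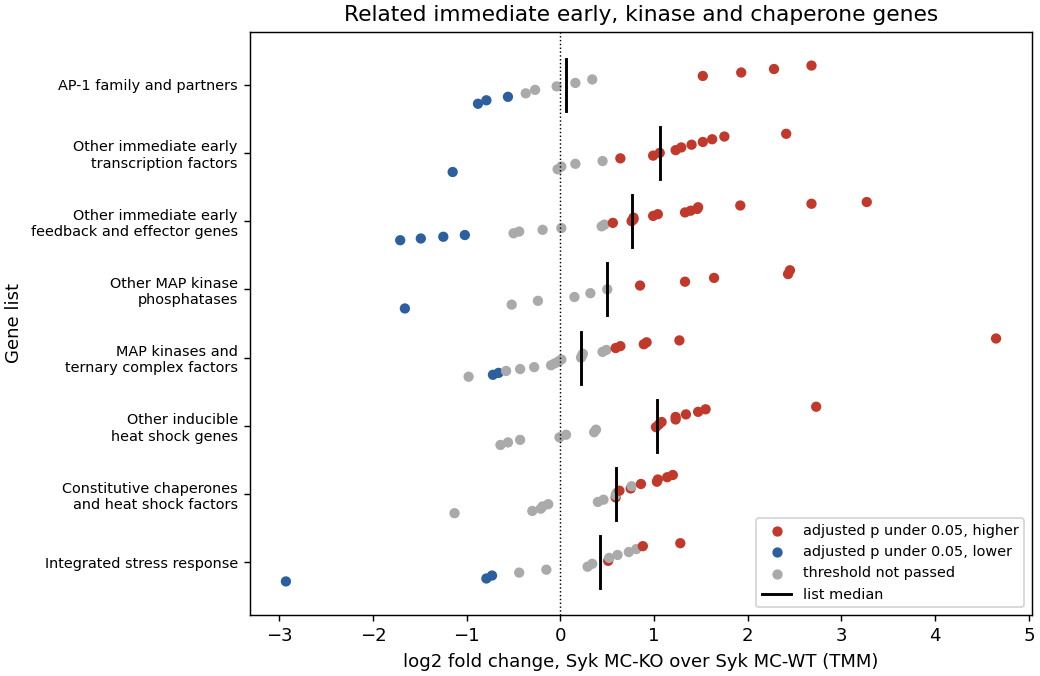
Log2FC (edgeR with TMM, KO-labelled libraries over Syk MC-WT) of each tested gene in 8 lists, 1 point per gene, coloured by the outcome of the test, with the list median as a bar. The other inducible heat shock genes and the other immediate early transcription factors have medians of 1.04 and 1.06, which become -0.16 and -0.12 when libraries are scaled to housekeeping genes.

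The genes with the profile most like the median of the 10 members over the 4 libraries, by Euclidean distance of centred log2 CPM among 10032 genes with a mean of at least 10 CPM, were *Clpp*, *Psmc4*, *Synrg*, *Rpf1* and *Abce1*. Their distances were 0.0357 to 0.0489, and their log2FCs were 0.52 to 0.59. The median profile was -0.25, -0.29, 0.26 and 0.29 in M7, M8, M9 and M10 on the centred log2 scale. The log2FCs of the members ran from -1.44 to 3.72, so likeness to this profile is not likeness to each member. With 4 libraries that fall into 2 genotypes the likeness reflects little more than the size of the difference.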

How the data were processed

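RNA sequencing of cells labelled as TAMs gave 4 libraries, 2 labelled Syk MC-WT and 2 labelled Syk MC-KO. Per the submitters' processing notes and the paper's methods, the tools were STAR 2.6.1d and Salmon 1.4.0 on mm10, and the authors deposited counts as whole numbers, 1 row per Ensembl gene, without normalization. How Salmon's estimates became whole numbers, and the annotation release, are not given in the sources used here. GENCODE release M21 (GRCm38, that is mm10) gave symbols, positions and summed exon lengths, and matched 54495 of 54532 genes. Library totals of 20755886 to 23518045 counts set the precision.

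Counts were analysed in R 4.3.3 with edgeR 4.0.16: filterByExpr, TMM, glmQLFit and glmQLFTest (not robust) over 16451 genes, calling genes at 0.05 after Benjamini-Hochberg adjustment. Standard errors are the log2 fold change over the root of F, with 95% intervals from the same fit. The fit was also run on simulated counts in which few genes changed, in equal numbers up and down. These data differ in far more genes, so that run does not show how TMM or the error rate holds here. The 2 libraries of a genotype differed by more than sampling noise (chi-square per degree of freedom 55.8 and 185). Named genes are the 10 members, *Syk*, the 4 genes of highest level per kb in each list, the 5 genes of most similar profile, and genes said to be singled out, and 1 gene under this rule is not reported here. Members and lists were chosen with earlier results of these data known. The alternatives, with DESeq2 1.42.0, are given with the limits.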

Additional observations from a re-analysis of the deposited data

How the results depend on the processing

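With each library left out in turn, 3 to 5 members were higher and 1 was lower, the log2 fold change of *Hspa1a* plus *Hspa1b* ran from 2.90 to 3.62, and 1478 to 5010 genes were higher and 807 to 4745 lower over the whole table, fewest without M8 and most without M10. Leaving a library out leaves the other of its genotype alone, and that one is assumed to vary like the rest. The fold changes of *Egr1* (-0.37 to 0.02) and *Ier2* (-0.32 to 0.40) changed sign among these fits. Over all genes, 3729 were higher and 2747 lower with TMM. The counts were 1677 and 5411 with library size only, 1008 and 9975 with housekeeping genes, 108 and 14374 with macrophage markers, and 58 and 15188 with pan-leukocyte genes, so the share of higher among called genes fell from 57.6% to 23.7%, 9.18%, 0.746% and 0.38%. When a call also needed a log2 fold change of 1 or more in size, 2426 genes and 3 members were higher.

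Members higher and lower were 3 and 2 with library size only, 2 and 6 with housekeeping genes, and 0 and 8 with either the macrophage or the leukocyte scaling (edgeR, with 0 higher also at an unadjusted p under 0.05). The summed HSP70 genes were at 0.43 and -0.24 in the last pair of scalings. With library size only, *Fos* was at -0.35 and *Ier2* at -0.42. Scaled to housekeeping genes, *Fos* was at -1.03, *Junb* at -0.57, *Ier2* at -1.06 and *Dusp1* at -0.33. *Atf3* kept its direction there, at 0.28, but did not pass the test. With macrophage markers, *Fos* was at -2.67, *Junb* at -2.24, *Atf3* at -1.37, *Ier2* at -2.69 and *Dusp1* at -2.00. With leukocyte genes, *Fos* was at -3.35, *Junb* at -2.90, *Atf3* at -2.05, *Ier2* at -3.35, *Dusp1* at -2.66 and *Hspa1b* at -0.58. Scaled to the 8 immediate early genes, *Ier2* was at -0.06. The cause was not tested beyond the change of scale itself. Of 150 member values under 15 alternatives, 108 kept their direction and side of the threshold. The DESeq2 Wald test, DESeq2 size factors, both filters and the fit without mitochondrial and rRNA-like genes kept every direction and every call but that of *Junb* with DESeq2 size factors (adjusted p = 0.0534). No paired analysis was possible because the genotypes share no replicate number. Depth did not limit the members, with 565 counts or more in every library.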
